A study of Homo sapiens with 24 samples.

Results

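To examine how TGFβ changes H3K4me3 in PANC-1 cells, the H3K4me3 peak lists of siControl and siControl+TGFb cells were compared. These are 4 of the 24 samples of the series, 2 libraries in each of 2 groups, chosen by their labels. PANC-1 is an established human cell line of pancreatic ductal carcinoma. Both groups were transfected with a control siRNA. siControl+TGFb cells were then grown for 48 h in medium with 10 ng/ml TGFβ, starting the day after transfection, and siControl cells were labelled untreated. Peaks had been called separately in each library, and the peaks of the 4 libraries were merged into 43265 regions. Of these, 19601 (45.3%) lay within 5 kb of a transcription start site (TSS) of a protein-coding gene and are called coding promoters. The other 23664 (54.7%) are called distal.

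H3K4me3 is placed on nucleosomes that flank active or poised promoters by the SET1 and MLL complexes, several of which bind unmethylated CpG-rich DNA, and it is removed by the KDM5 demethylases. TGFβ signals through its receptor kinases to SMAD transcription factors. In epithelial tumour cells it induces epithelial-mesenchymal transition (EMT), in which junction genes are repressed and matrix, adhesion and cytoskeletal genes are induced. Low, narrow H3K4me3 is also found at active enhancers.

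Groups were taken from the labels, and one point bears on every direction below. Each deposited peak has a name, and in the siControl+TGFb lists this name reads 3AT. NCT, the study's short form for siControl+TGFb, stands instead in the lists labelled siPHF13+TGFb. Numbers of peaks given by the study for each condition follow the labels. If the labels were exchanged, the comparison would be of other libraries.

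The libraries also differed within groups. The siControl lists held 30770 and 35417 peaks and the siControl+TGFb lists 39202 and 36308. siControl replicate 1 stood apart, since 4446 regions had a peak in all libraries but this one, against 63 to 288 regions missing only from another library. Read counts are not part of the peak lists, so sequencing depth is unknown and no interval that needs it is given. H3K4me3 was found at the starts of 5 of 6 ductal and epithelial marker genes in all 4 libraries (KRT8, KRT18, KRT19 and SOX9 among them), and at 0 of 5 acinar, 1 of 5 endocrine, 1 of 4 leukocyte and 0 of 2 endothelial markers. KRT7, the other ductal marker, had a peak of 208 bp in siControl+TGFb replicate 1 and none in the other libraries.

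Sequences are shown for regions that appeared or disappeared with TGFβ, since their base composition, described further on, differed from that of the regions found in every library. Each is the 200 bp around the strongest summit in hg19 (read from GRCh37), and capitals mark CG dinucleotides. Windows that touch an untranslated region were passed over.
HHAT, gained, chr1:210547259-210547458, plus strand: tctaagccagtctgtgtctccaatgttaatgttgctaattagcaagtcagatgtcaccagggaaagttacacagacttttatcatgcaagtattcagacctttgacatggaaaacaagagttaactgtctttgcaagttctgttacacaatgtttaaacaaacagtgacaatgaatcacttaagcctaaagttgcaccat
WWC1, gained, chr5:167792938-167793137, plus strand: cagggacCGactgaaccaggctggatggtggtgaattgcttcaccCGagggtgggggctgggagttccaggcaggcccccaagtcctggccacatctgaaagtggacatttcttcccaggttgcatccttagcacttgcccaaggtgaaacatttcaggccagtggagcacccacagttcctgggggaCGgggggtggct
IRS2 (distal), gained, chr13:109924838-109925037, plus strand: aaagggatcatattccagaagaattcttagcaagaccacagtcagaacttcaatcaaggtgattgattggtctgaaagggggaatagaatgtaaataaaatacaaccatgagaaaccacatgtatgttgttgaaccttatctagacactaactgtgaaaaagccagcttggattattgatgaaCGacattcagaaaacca
KRR1 (distal), gained, chr12:76100196-76100395, plus strand: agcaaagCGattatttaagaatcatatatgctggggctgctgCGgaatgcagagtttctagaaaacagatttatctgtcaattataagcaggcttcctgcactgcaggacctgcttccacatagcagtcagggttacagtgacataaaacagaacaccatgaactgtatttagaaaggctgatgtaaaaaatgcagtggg
MRPL1, lost, chr4:78803009-78803208, plus strand: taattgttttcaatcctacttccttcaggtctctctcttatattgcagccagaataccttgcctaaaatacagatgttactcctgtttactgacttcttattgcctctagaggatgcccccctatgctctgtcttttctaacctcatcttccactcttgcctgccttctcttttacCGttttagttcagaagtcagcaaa
SDHA, lost, chr5:252797-252996, plus strand: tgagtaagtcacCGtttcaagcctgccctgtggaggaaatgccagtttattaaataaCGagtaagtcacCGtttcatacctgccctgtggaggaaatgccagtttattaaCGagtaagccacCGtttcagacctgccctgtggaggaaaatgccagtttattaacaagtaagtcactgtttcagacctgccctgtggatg
The HHAT window holds 0 CG and 1 match to the AP-1 motif TGANTCA, the WWC1 window 3 CG, the IRS2 window 1 and the KRR1 window 2. The KRR1 window also holds 1 match to the TEAD motif GGAATG. The MRPL1 window holds 1 CG, and the SDHA window, in which a short unit is repeated, holds 5.

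H3K4me3 covered more of the genome in siControl+TGFb than in siControl cells. Peaks covered 29.3 and 36.9 Mb in the siControl libraries and 41.1 and 37.4 Mb in the siControl+TGFb libraries, a mean of 33.1 ± 5.32 against 39.3 ± 2.60 Mb (SD, n = 2). Both siControl+TGFb values lay above both siControl values, by 0.25 on average on the log2 scale. The exact two-sided permutation test gave p = 0.33, the smallest value that 2 libraries against 2 allow. At coding promoters the covered length was 23.0 and 26.0 Mb in siControl and 28.1 and 26.6 Mb in siControl+TGFb (log2 difference 0.16, exact permutation p = 0.33), and again the groups did not overlap. At distal regions it was 6.34 and 10.9 Mb against 13.0 and 10.8 Mb (log2 difference 0.52, exact permutation p = 0.667). Here the groups overlapped, because siControl replicate 2 exceeded siControl+TGFb replicate 2. Within the distal class the groups were separate at the starts of lncRNA genes (2.02 and 2.76 against 3.18 and 2.81 Mb). They overlapped inside coding genes (1.61 and 3.40 against 4.20 and 3.36 Mb) and in intergenic DNA (2.72 and 4.72 against 5.64 and 4.66 Mb). Over all regions the difference was 0.09 without siControl replicate 1 and 0.42 without siControl replicate 2, and at distal regions 0.13 and 0.91.

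**Figure D1:**
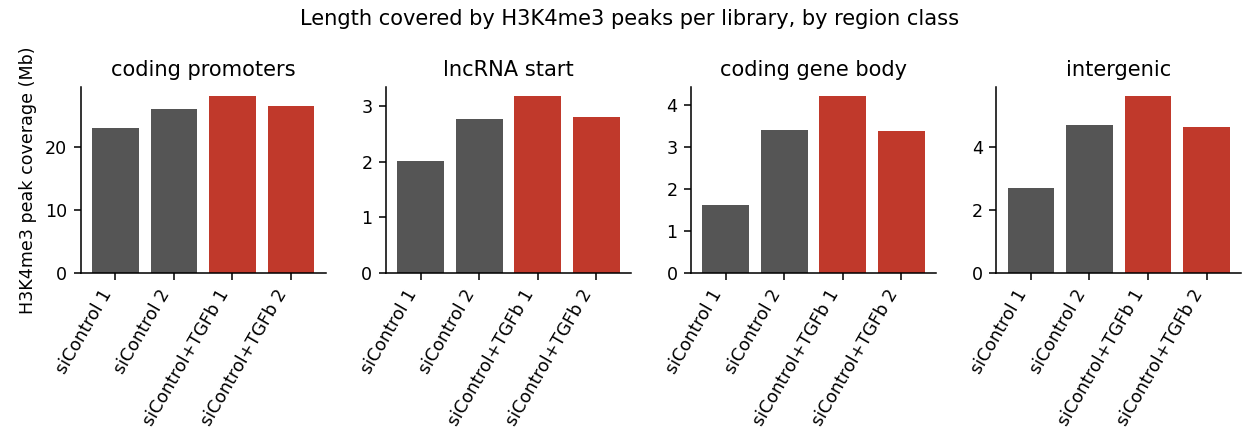
Length covered by H3K4me3 peaks (Mb, vertical axis) in each of the 4 libraries, for coding promoters, lncRNA starts, coding gene bodies and intergenic regions; bars are single libraries, grey for siControl and red for siControl+TGFb. siControl replicate 1 was lowest in every class, and siControl replicate 2 reached or passed siControl+TGFb replicate 2 in gene bodies and intergenic regions.

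More regions met the definition of gained than of lost, and both numbers lay within the range of mixed library pairs. A peak was present in both siControl+TGFb libraries and neither siControl library at 1654 of 43265 regions (3.82%), called gained, and the reverse held at 104 (0.240%), called lost. As a measure of how much single libraries differ, peaks found only in 1 siControl and 1 siControl+TGFb library were counted for the 4 possible mixed pairs. These gave 62 to 1723 regions, the highest for siControl replicate 2 with siControl+TGFb replicate 1, so the number of gained regions was within the range of mixed pairs. The number of lost regions was within it too. Mixed pairs with siControl replicate 1, which is also part of the lost pair, were all small (166 and 62 regions). With peaks of a −log10 q of at least 3 alone, 1801 regions were gained, above the 40 to 1524 of the mixed pairs. Other settings did not place gained regions above that range. When every list was cut to 30770 peaks, 815 regions were gained, and mixed pairs gave 125 to 906. When 50% of a region had to be covered, 2396 were gained, and mixed pairs gave 59 to 2601. Under the main definition 360 coding promoters were gained and 14 lost (mixed pairs 10 to 345), and 1294 distal regions were gained and 90 lost (52 to 1378). Without siControl replicate 1, 1882 regions were gained and 2792 lost. Without siControl replicate 2 the numbers were 6215 and 959, without siControl+TGFb replicate 1 4296 and 412, and without replicate 2 of that group 6290 and 171. In these splits the group left with 1 library needs a peak in that library alone, while the other group needs both. Gains and losses can therefore not be compared within them. Gained regions were small and weak. Their median length was 329 bp with a fold enrichment of 4.31 and a −log10 q of 4.85, against 1317 bp, 6.45 and 26.2 for the 24213 regions with a peak in all 4 libraries. The regions of the mixed pair siControl replicate 2 with siControl+TGFb replicate 1 had nearly the same values (315 bp, 4.33 and 4.76).

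**Figure D2:**
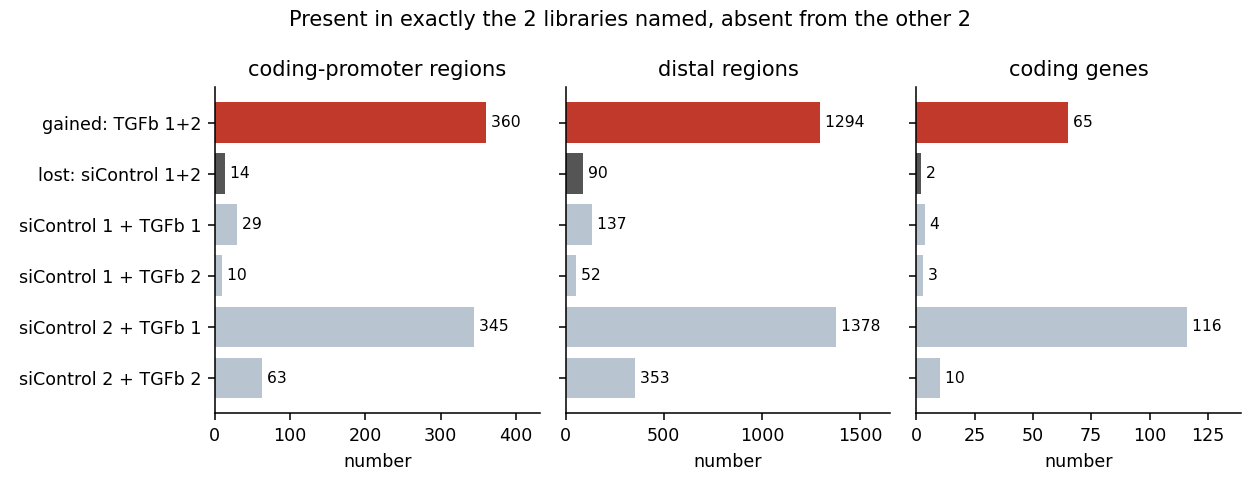
Number (horizontal axis) of coding-promoter regions, distal regions and coding genes with a peak in exactly the 2 libraries named at left and in neither of the others. Gained promoters (360) and distal regions (1294) stood close to the highest mixed pair (345 and 1378), and gained genes (65) below it (116).

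The longest gained promoter regions belonged to genes of different function. The first was in an intron of HHAT, the acyltransferase of Hedgehog ligands, 3636 bp from the nearest coding TSS (chr1:210546695-210548024). It was covered over 1257 and 918 bp in siControl+TGFb, with fold enrichments of 5.61 and 6.40, and H3K27ac was present there in all 4 libraries of that mark. The second lay in an intron of WWC1, the Hippo pathway scaffold also called KIBRA, with a coding TSS of the gene 4863 bp away (chr5:167792419-167793563; 1011 and 1078 bp). In the H3K27ac libraries the WWC1 region was covered over 903 and 228 bp with TGFβ and over 0 bp in both siControl libraries. The third region was at RAC2, a small GTPase known from blood cells (1019 and 828 bp). Its H3K27ac likewise covered 150 and 270 bp with TGFβ and 0 bp without. HOGA1, an enzyme of hydroxyproline breakdown, followed with 864 and 940 bp.

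At other members of this set the mark lay beside or over a promoter in another state. The gained region of COA1, a factor of cytochrome oxidase assembly, covered a coding TSS (799 and 947 bp), and H3K27ac was present there in all 4 libraries. The region at SEZ6, a neuronal membrane protein gene, covered 630 and 1062 bp and was under H3K27me3 over its full 1062 bp in every siControl and siControl+TGFb library. At DNAJB6, which encodes a co-chaperone, fold enrichments were 1.95 and 1.73, the lowest of the 8 promoters. CYP17A1, a steroidogenic enzyme gene, had 847 and 813 bp in an exon, with neither H3K27ac nor H3K27me3 in any of these libraries. In each of these 8 regions coverage was 0 bp in siControl, as the choice of regions requires.

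The longest gained distal regions were far from coding genes. They lay 512447 bp from IRS2, which encodes an insulin receptor substrate (1291 and 1224 bp), 71691 bp from MYC (1237 and 1048 bp), 194320 bp from KRR1 (1056 and 1105 bp), 116743 bp from ANKRD55 (936 and 1022 bp) and 46501 bp from HOXB1 (1123 and 786 bp). H3K27ac was already present at the MYC region in siControl cells (1065 and 1537 bp, against 1682 and 1662 bp with TGFβ), and at the KRR1 region (819 and 907 against 980 and 967 bp). At the ANKRD55 region it covered 0 and 329 bp in siControl and 1174 and 929 bp in siControl+TGFb. The IRS2 region, near the start of a lncRNA gene, had no H3K27ac in these 4 libraries. No value here ties a distal region to the gene named beside it, which is only the nearest.

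Lost regions had a median length of 247 bp, against 329 bp for gained ones. The longest lost promoter region lay in an exon of TGIF1, which encodes a co-repressor of SMAD proteins, 19 bp from a coding TSS (chr18:3451741-3452244). It was covered over 246 and 502 bp in siControl, with fold enrichments of 2.10 and 1.69. Other peaks in the TGIF1 windows were present in all 4 libraries, so the gene itself was not lost. Introns of MRPL1, a mitochondrial ribosomal protein gene (230 and 416 bp), and SDHA, the flavoprotein of succinate dehydrogenase (252 and 294 bp), followed. Lost distal regions were led by an intron of PTPRJ, a receptor tyrosine phosphatase (665 and 611 bp). There were only 14 lost promoter regions to rank, against 360 gained ones.

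Gain and loss were also counted for whole genes. Every region has a peak by construction and a gene need not, so shares of genes and of regions are not comparable. Of 19820 coding genes, 65 (0.328%) had a peak within 5 kb of any coding TSS in both siControl+TGFb libraries and neither siControl library, and 2 (0.0101%) the reverse, PRR20G (209 and 198 bp in siControl) and TM4SF4 (167 and 16 bp). The mixed pairs gave 3 to 116 genes. After RAC2 and HOGA1 the gained genes with the most coverage were ROBO4, an endothelial guidance receptor (1044 and 711 bp), CYP17A1 (847 and 813 bp) and YPEL4 (1043 and 536 bp). ANKRD1, a nuclear co-factor whose transcription is a standard readout of YAP and TEAD activity, was not covered in siControl and covered over 320 and 292 bp with TGFβ (fold enrichment 3.91 and 3.84). It was the only gained or lost gene of the 8 gene lists described further on. H3K4me3 was present in all 4 libraries at 14632 genes and in none at 4420.

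Some features of gained regions had not been used to choose them. The observed-to-expected CpG ratio in the 400 bp around the summit had a median of 0.29 in gained regions, against 0.62 in regions of all 4 libraries and 0.46 over all regions. It was 0.25 in lost regions and 0.26 to 0.33 in the mixed pairs, so a low ratio was common to the sets found in 2 libraries. Of gained regions 9.49% had a ratio over 0.6, beside 11.5% of lost regions and 9.68% to 17.0% in the mixed pairs. Among promoters 20.6% of gained, 28.6% of lost and 62.4% of constant regions were over 0.6. The AP-1 motif TGANTCA, on either strand, was in 24.7% of gained windows, 23.1% of lost ones, 14.5% to 25.2% in the mixed pairs and 15.2% over all regions. The TEAD motif GGAATG was in 26.0%, 23.1%, 19.4% to 24.7% and 21.1%. The SMAD motif CAGAC was in 58.9%, 54.8%, 46.8% to 56.5% and 56.1%, and the E-box CAGGTG of ZEB and SNAI proteins in 27.4%, 26.0%, 21.0% to 29.0% and 29.0%. All 4 shares were higher in gained than in lost regions by a few percent of regions, without a test. The AP-1 and E-box shares lay within the range of the mixed pairs, and the TEAD and SMAD shares above it. The E-box share was also below that of all regions. A match is not a bound site.

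Many gained promoter regions lay next to a lasting domain. Of the 360 gained promoters 44.4% were within 1 kb of a region present in all 4 libraries, as were 50% of the 14 lost promoters and 27.2% to 44.8% in the mixed pairs. Of the 1294 gained distal regions 6.57% were, against 3.12% to 17.5% in the mixed pairs.

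Acetylation gave a measure from other libraries of the same groups. H3K27ac was gained, by the same definition, at 174 of 1654 regions that gained H3K4me3 (10.5%, with a 95% Wilson interval of 9.13 to 12.1), beside 1987 of all 43265 regions (4.59%). It was gained over 3 of the 104 lost regions (2.88%, 0.986 to 8.14). In the mixed pairs the share was 3.31% (2.56 to 4.26) and 6.25% (4.30 to 9.0) for pairs with siControl replicate 2, and 8.43% (5.09 to 13.7) and 6.45% (2.54 to 15.4) for the small pairs with siControl replicate 1. The interval of gained regions thus lay above those of the first 2 mixed pairs and overlapped those of the other 2. With lists of equal length it was 7.18 to 11.1 and overlapped 3 of the 4. These intervals cover the counting error over regions only. The share was 11.3% (9.67 to 13.1) at distal gained regions, where 1 mixed pair of siControl replicate 2 had 7.08% (4.84 to 10.2). At gained coding promoters it was 7.78%, below the 10.3% and 10% of the small mixed pairs with siControl replicate 1. The H3K27ac lists were themselves unequal, since they covered 34.1% and 44.6% of all H3K4me3 regions in siControl and 58.5% and 45.7% in siControl+TGFb, and the part of this in the result was not tested. H3K27ac was lost over 1 gained region (0.0605%) and 0 lost regions, beside 16 of all 43265 regions (0.0370%).

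**Figure D3:**
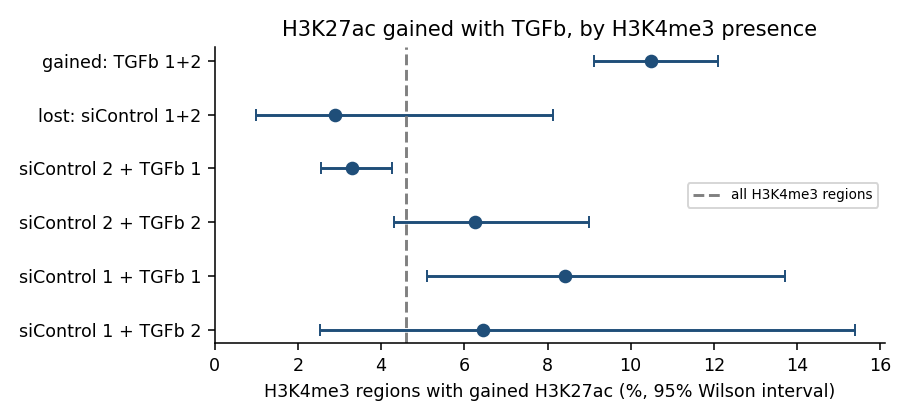
Share of H3K4me3 regions over which H3K27ac was gained with TGFβ (percent, horizontal axis), for gained regions, lost regions and the 4 mixed pairs; points are shares, bars 95% Wilson intervals, and the dashed line the share over all regions (4.59%). Gained regions had the highest share, 10.5%, and their interval overlapped those of both pairs that include siControl replicate 1.

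Repressive chromatin and the remaining H3K4me3 libraries were also set beside these regions. H3K27me3 covered 8.65% and 14.1% of gained regions in siControl and 11.1% in each siControl+TGFb library, against 22.1% and 26.0%, then 22.1% and 21.2%, of lost regions and 14.3% and 19.6%, then 17.1% and 17.0%, of all regions. In the mixed pairs it covered 9.86% to 21.7% and 15.4% to 26.5% in siControl. With TGFβ these shares were 11.8% to 21.1% and 11.5% to 23.5%, and the lowest mixed pair was close to gained regions in every library. H3K27me3 itself was gained over 4 (0.242%) and lost over 5 (0.302%) of the 1654, beside 0.294% and 0.351% of all regions. In the siPHF13+TGFb libraries, which received TGFβ and an siRNA against PHF13, 4.96% and 31.9% of gained regions had an H3K4me3 peak, beside 7.69% and 43.3% of lost regions and 53.7% and 69.9% of all regions. In the mixed pairs the shares were 6.27% to 12.9% and 32.5% to 42.9%, the lowest of them close to those of gained regions.

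Where the mark was present throughout, regions were more often longer than shorter with TGFβ. Of the 24213 regions in all 4 libraries, 10448 (43.2%) were covered further in both siControl+TGFb libraries than in either siControl library, and 720 (2.97%) less far. Mixed pairs gave 1401 to 6871 in a direction. The median covered length was 1174 and 1314 bp in siControl and 1428 and 1359 bp in siControl+TGFb, and the median change 0.14 on the log2 scale. When each library was centred on its own median, 3832 regions (15.8%) were wider and 5111 (21.1%) narrower. Centring sets the typical change near 0, so this split describes regions relative to their library only. limma called 0 regions wider or narrower at an adjusted p under 0.05 (0%), the smallest adjusted p being 0.673. At an unadjusted p under 0.05 it gave 1507 wider (6.22%) and 35 narrower (0.145%). By class the median change was 0.12 at coding promoters, 0.19 at lncRNA starts, 0.24 in intergenic regions and 0.38 inside coding genes. Inside coding genes the median length was 497 and 859 bp in siControl and 978 and 890 bp with TGFβ, and siControl replicate 1 stood far below the other libraries. The median change was 0.36 in regions of 500 to 1000 bp and 0.09 in those over 2000 bp. In the smaller regions the median length was 542 and 832 bp in siControl and 928 and 845 bp with TGFβ. There too siControl replicate 1 stood far below the other libraries, and replicate 2 of both groups was close.

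The greater width was measured on both sides of start sites. Of 19540 canonical coding TSSs, 9316 lay under a peak in all 4 libraries. The upstream edge of that peak was a median of 595 and 647 bp from the TSS in siControl and 693 and 677 bp in siControl+TGFb. The downstream edge was 1038 and 1040 bp away in siControl and 1102 and 1089 bp with TGFβ. The groups did not overlap on either side (exact permutation p = 0.33 for each, the smallest possible). Per TSS the median shift was 55.5 bp upstream and 50.5 bp downstream. The upstream edge was farther in both siControl+TGFb libraries at 41.2% of these TSSs and nearer at 5.16%, and the downstream edge at 36.9% and 6.45%. With each library left out in turn the shifts were 41.5 to 66.0 bp and 43.0 to 57.5 bp. Over all TSSs, siControl replicate 2 had the most under a peak (11920, against 10121, 11609 and 11078 in siControl replicate 1 and siControl+TGFb replicates 1 and 2).

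**Figure D4:**
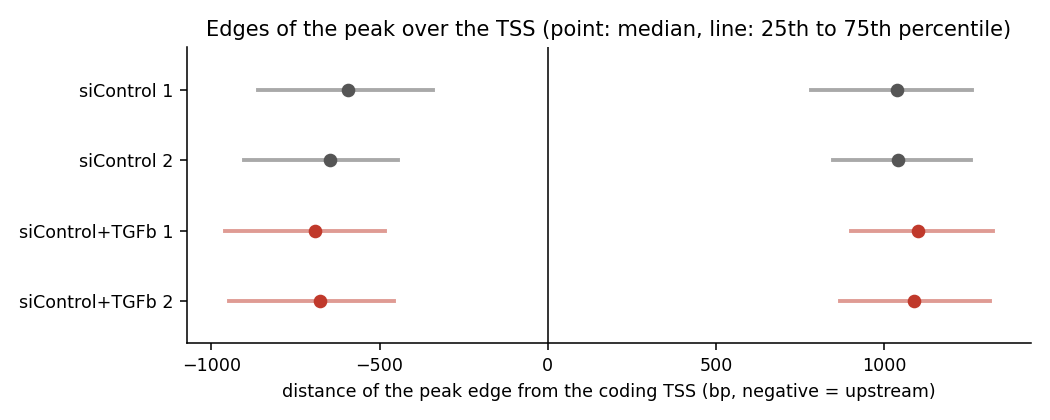
Distance from coding TSSs to the edges of the H3K4me3 peak over them (bp, horizontal axis, negative upstream) in each library, for the 9316 TSSs under a peak in all 4; points are medians and lines run from the 25th to the 75th percentile over TSSs. Both edges lay farther out in both siControl+TGFb libraries, with median shifts of 55.5 and 50.5 bp.

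Single promoters differed by more. Counting regions whose groups did not overlap both before and after centring, 1823 coding-promoter regions (11.6%) were wider and 480 (3.04%) narrower, and no one of them passed the adjusted threshold (limma adjusted p = 0.673 for each region named here). The largest difference was near GGT5, a gamma-glutamyltransferase, with 148 and 206 bp in siControl and 1415 and 699 bp in siControl+TGFb (log2 change 2.51, SE 0.44). EEF2, the translation elongation factor, followed with 179 and 400 against 1099 and 1223 bp at a region beside its TSS. EID3 (284 and 472 against 1771 and 1406 bp), SNCG, a synuclein (146 and 779 against 1583 and 1280 bp), and PTPA, the activator of a protein phosphatase (178 and 565 against 1424 and 1117 bp), showed the same order. SBNO2, PTTG1IP and TNS3, the last a focal adhesion protein, completed the 8, with log2 changes of 2.07, 2.03 and 2.03. In all 8 the groups are separate because the rule requires it. Without siControl replicate 1 the log2 change was 0.44 for SBNO2, 0.87 for SNCG, 1.11 for PTTG1IP and 1.16 for PTPA, and without siControl replicate 2 it was 3.71 for SBNO2 and 3.29 for SNCG.

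When only centred widths were compared, 11.6% of coding promoters were wider and 24.6% narrower, with 1661 to 4342 regions in the mixed pairs, so narrower promoters were the fewer without centring only. The 8 named narrower ones were separate under both scalings. At the region near OR1F1, an olfactory receptor gene, coverage was 582 and 1139 bp in siControl and 234 and 282 bp with TGFβ (log2 change -1.66, SE 0.40). A region 1562 bp from the TSS of SOX9, the ductal lineage factor, was covered over 832 and 968 bp in siControl and 402 and 320 bp with TGFβ (log2 change -1.32, SE 0.17). Over the whole SOX9 window, however, the groups overlapped (2707 and 3144 against 3008 and 2739 bp). CMIP, MFHAS1, ELP5, KPNA7, HOXD8 and TMSB4X, the last a beta-thymosin that binds actin, had log2 changes from -0.95 to -0.59. Without siControl+TGFb replicate 1 the change was -0.54 for MFHAS1, -1.11 for KPNA7 and -0.41 for HOXD8, without replicate 2 of that group -0.24 for KPNA7, and without siControl replicate 2 -0.37 for TMSB4X.

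Peak height was measured as the highest fold enrichment over input in a region, centred on each library's median. It was higher in both siControl+TGFb libraries at 3456 regions (14.3%) and lower at 5399 (22.3%), with 2837 to 5708 in the mixed pairs. Without centring 12.5% were higher and 12.7% lower, with 578 to 12288 regions (2.39% to 50.7%) in the mixed pairs. limma called 0 at an adjusted p under 0.05 (0%), and at an unadjusted p gave 970 higher (4.01%) and 569 lower (2.35%). Among coding promoters, 668 (4.23%) were higher and 1736 (11.0%) lower with groups separate under both scalings. The median change in height was -0.11 in regions over 2000 bp and 0.09 in those of 500 to 1000 bp.

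The 8 promoters with the largest positive change in height were narrow, covered over at most 1097 bp in any library. NRXN2, a neuronal adhesion protein gene, had fold enrichments of 3.88 and 10.6 in siControl and 19.4 and 13.9 in siControl+TGFb (centred log2 change 1.3, SE 0.32, limma adjusted p = 0.576). SRPX2, a secreted matrix-associated protein gene, had 3.33 and 6.36 in siControl against 10.1 and 10.8 (1.13, SE 0.21, limma adjusted p = 0.515). KCNAB1 (3.33 and 3.82 against 7.47 and 7.98), GOLT1A (3.88 and 4.67 against 9.55 and 7.98) and SLC8A2, a sodium-calcium exchanger (4.44 and 5.51 against 10.4 and 9.67), likewise had separate groups. C1QC, GABRR3 and the gene ENSG00000288593 had changes of 0.86, 0.86 and 0.91. Without siControl replicate 1 the change was 0.74 for NRXN2 and 0.52 for GABRR3.

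The 8 promoters with the largest negative change included known TGFβ-responsive genes, and 5 of the 8 were wider at the same time, beside 44.1% of all coding promoters and 4 of the 8 promoters with the largest positive change. ANGPTL4, a secreted angiopoietin-like protein that SMAD proteins induce, had fold enrichments of 4.79 and 6.32 in siControl and 3.64 and 3.44 with TGFβ (-0.69, SE 0.14, limma adjusted p = 0.515), while its region was covered over 1365 and 2020 against 2826 and 2494 bp. TGFBI, a matrix protein named for its induction by TGFβ, had 6.40 and 8.88 against 4.85 and 4.96 (-0.68, SE 0.15, limma adjusted p = 0.522), with 1483 and 1454 against 2265 and 1978 bp. SIK1, a kinase of the AMPK family, had the same order (5.22 and 6.14 against 3.64 and 3.63, with 1780 and 1516 against 2929 and 2868 bp), as did the metallothionein MT1A (8.34 and 9.32 against 5.88 and 5.56). SEMA7A, a semaphorin, had 5.83 and 11.3 against 5.45 and 4.69, with 1502 and 1661 against 1823 and 1869 bp. DNAJB6, GPR162 and LMTK3, with changes of -0.74, -0.73 and -0.68, were lower without being wider. The change was -0.43 for SEMA7A without siControl replicate 2, and for GPR162 it was -1.16 without siControl+TGFb replicate 1 and -0.29 without replicate 2 of that group. The DNAJB6 region is the neighbour of the gained region described above. No promoter named for its height passed the adjusted threshold.

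The gene lists were read against the shares of all 14632 genes with peaks in all 4 libraries. Of these genes 6998 (47.8%) were wider, 315 (2.15%) narrower, 2178 (14.9%) higher and 2972 (20.3%) lower in both siControl+TGFb libraries, with bp covered not centred and fold enrichment centred. With the scalings exchanged 2405 were wider, 2586 narrower, 997 higher and 2340 lower. Among the 28 TGFb-SMAD targets with the mark, 11 were wider (39.3%, mixed pairs 0 to 16), 0 narrower, 1 higher and 12 lower (42.9%, mixed pairs 1 to 8). The share of wider targets was below the 47.8% of all genes. The median width change was 0.28, and 0.15 once centred, against 0.12 and 0.00 for all genes, and the median height change -0.14 against -0.01. ANGPTL4 and LMCD1, a LIM protein (928 and 1665 against 1968 and 1815 bp), had the largest width changes. Some further members are named here after their values were seen. SKIL, a SMAD co-repressor, had fold enrichments of 5.84 and 6.22 in siControl and 4.33 and 4.37 with TGFβ, and PMEPA1, a feedback inhibitor of the pathway, 4.15 and 4.41 against 3.12 and 3.26. Neither gene was wider in both libraries. SMAD7 overlapped on both measures (934 and 3527 against 3142 and 1908 bp). CDKN2B and NOX4 had no peak in any library.

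Of 35 mesenchymal and matrix genes 25 carried the mark in all 4 libraries. Of these 6 were wider (24.0%, mixed pairs 0 to 17), below the 47.8% of all genes. In height 4 were higher (16.0%) and 12 lower (48.0%, mixed pairs 2 to 3), beside 14.9% and 20.3% of all genes. The median height change was -0.09. ACTA2, FBN1, MMP9 and TNC were the higher ones. COL1A1, the main fibrillar collagen chain, had fold enrichments of 6.85 and 7.52 in siControl and 4.35 and 5.29 with TGFβ, and covered lengths of 1428 and 1890 against 2762 and 2305 bp. CDH2, N-cadherin, was covered over 1633 and 2861 against 3364 and 2974 bp. COL4A1 and COL4A2, both counted as lower, share 1 promoter. FN1, fibronectin, overlapped on both measures. COL1A2, DCN, ITGB6, LUM, MMP1, POSTN, SPARC and TAGLN had no peak in any library. With each library left out in turn, 12 to 16 of these 25 and 14 to 20 of the 28 TGFb-SMAD targets were lower, against 4902 to 6326 of the 14632 genes and 33 to 60 of the 77 ribosomal protein genes described further on.

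Of 34 epithelial genes 29 had the mark in all 4 libraries and 0 were lost, beside 2 of all 19820 coding genes (0.0101%). Of the 29, 12 were wider (41.4%, mixed pairs 1 to 11), beside 47.8% of all genes, and 1 was narrower. In height 3 were higher (10.3%) and 2 lower (6.90%), with mixed pairs 4 to 8, beside 14.9% and 20.3% of all genes. With each library left out in turn, 7 to 10 were lower. CDH1, E-cadherin, was covered over 1517 and 1502 bp in siControl and 1571 and 1159 bp with TGFβ, and EPCAM over 2727 and 2871 against 3055 and 2593 bp, so neither was separate. CLDN4, a claudin (2238 and 2342 against 3048 and 2977 bp), and ST14, matriptase (799 and 1433 against 1510 and 1629 bp), had the largest width changes among members whose groups were separate, and LSR, a tricellular junction protein, was the narrower one (2292 and 2239 against 2083 and 1977 bp). EHF, GRHL2, PRSS8 and RAB25 had no peak in any library.

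All 13 EMT factors had the mark before TGFβ. In the EMT, AP-1 and YAP-TEAD lists the share of wider genes was below the 47.8% of all genes, and mixed pairs reached 6, 8 and 5 genes. Of the 13 EMT factors 4 were wider (30.8%), 4 higher (30.8%) and 3 lower (23.1%). Among all genes 14.9% were higher and 20.3% lower. ETS1 (4524 and 4903 against 6391 and 5889 bp) and GSC (1137 and 1603 against 1824 and 1763 bp) had the largest width changes. ZEB2 was wider (2000 and 2556 against 3251 and 2654 bp), and SNAI1 was lower in fold enrichment (4.08 and 4.58 against 3.51 and 3.76) with overlapping widths. HMGA2 and SOX4 were the other lower ones, and PRRX1, TWIST1, TWIST2 and ZEB2 were higher. Of 17 AP-1 genes with the mark 6 were wider (35.3%), 0 higher and 4 lower (23.5%). Wider members included BATF2 (843 and 1124 against 1438 and 1492 bp) and MAFF (1731 and 2092 against 2238 and 2464 bp). Of 15 YAP-TEAD genes 6 were wider (40.0%), 3 higher and 3 lower (20% each). AXL, a receptor tyrosine kinase (1845 and 2652 against 2956 and 2891 bp), was among the wider ones. So was WWTR1, which encodes TAZ (4100 and 4654 against 6691 and 4922 bp). Of 16 genes for H3K4 writers and erasers 8 were wider (50%, mixed pairs 0 to 4), close to the 47.8% of all genes. In height 3 were higher (18.8%) and 4 lower, with mixed pairs 1 to 5. Both height shares were a little above the 14.9% and 20.3% of all genes. KDM5C, a demethylase (1963 and 2211 against 2702 and 2524 bp), was among the wider ones. ASH2L, a subunit shared by the methyltransferase complexes, was another (1677 and 1965 against 2286 and 2175 bp).

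The 77 cytoplasmic ribosomal protein genes served as a housekeeping reference. Of these 46 (59.7%) were wider, 2 narrower, 0 higher and 29 lower (37.7%, mixed pairs 3 to 26), with median changes of 0.14 in width and -0.10 in height. Of all genes 47.8% were wider and 20.3% lower. RPL34 (1481 and 1200 against 1771 and 1836 bp) and RPL13 (1752 and 2068 against 2412 and 2474 bp) had the largest width changes, and RPS18 and RPL14 were the narrower ones, with log2 changes of -0.07 and -0.05. Wider and lower peaks were therefore counted in the housekeeping reference as well as in the TGFb-SMAD targets.

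**Figure D5:**
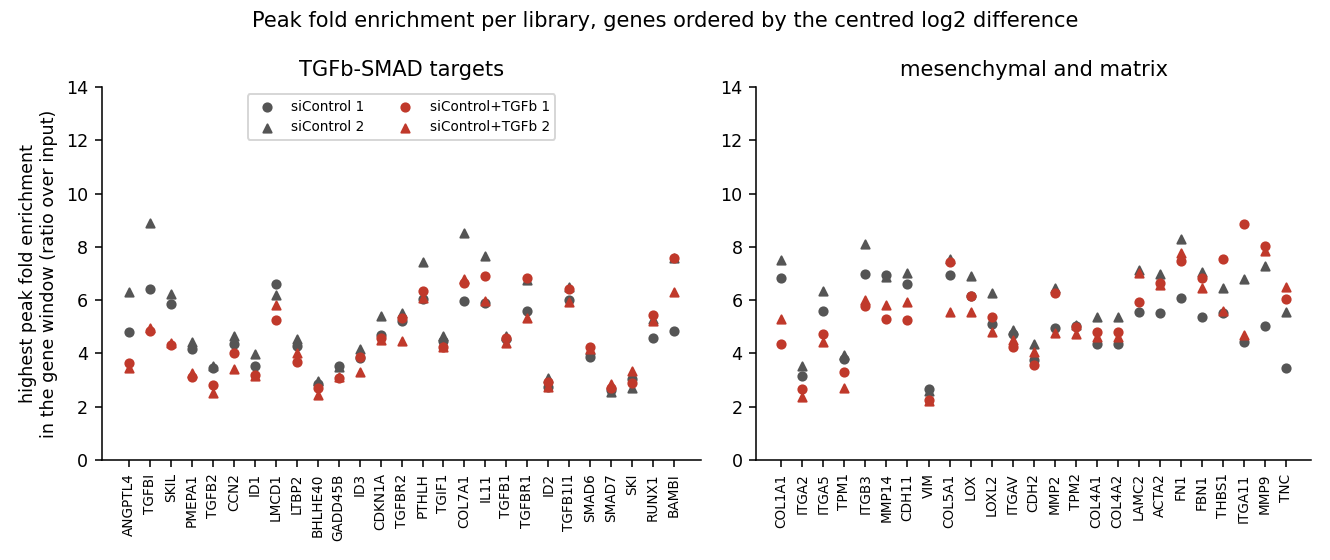
Highest fold enrichment over input (ratio, vertical axis) of a peak in each gene's window in the 4 libraries, for the TGFb-SMAD targets and the mesenchymal and matrix genes with peaks in all 4 (1 target is not plotted), ordered by the centred log2 difference. Grey marks are siControl, red marks siControl+TGFb, circles replicate 1 and triangles replicate 2; at ANGPTL4, SKIL and COL1A1 both red marks lie below both grey ones.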

How the data were processed

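ChIP-seq of H3K4me3 was compared between 2 siControl and 2 siControl+TGFb libraries of PANC-1 cells. According to the submitters' processing notes and the study's methods, reads were trimmed with Trim Galore 0.4.1, aligned to hg19 with Bowtie2 2.4.1, deduplicated with Picard and passed to MACS2 2.2.7.1, which the authors ran against input for each library. For each peak the deposited lists hold the fold enrichment over input, a ratio, and the −log10 q-value, both computed by the authors. Both the number and the width of called peaks depend on depth and enrichment as well as on the mark. The lowest −log10 q in a list was 1.3, a looser threshold than the methods state.

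Overlapping or touching peaks were merged into regions (NumPy 2.4.6, Python 3.11.15). A region counted as present in a library from 1 bp of coverage. Regions and genes were assigned with GENCODE release 44 in its GRCh37 version (19820 coding genes), and the last peak lay within the GRCh37 sequence on all 24 chromosomes. Width (log2 bp, not centred) and height (log2 fold enrichment, centred on each library's median) were tested with limma 3.58.1 in R 4.3.3 with Benjamini-Hochberg adjustment, and library totals with an exact permutation test. Scripts were tested on simulated data. Labels do not say that the 2 libraries of a group were separate cultures, so p-values may measure technical spread only.

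Named regions were the 8 promoter and 5 distal regions with the largest mean coverage among gained and among lost regions, the 8 promoters with the largest change in width and in height in each direction with groups separate under both scalings, and, of each gene list, gained or lost members and the 2 with the largest width change in each direction among those whose groups did not overlap. Members and lists were chosen with earlier results of these data known. H3K27ac and H3K27me3 lists of the same groups and the H3K4me3 siPHF13+TGFb lists served only as descriptions, and the remaining lists and the inputs were not used. Some genes and 1 sequence that the rules would name are not reported here.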

Additional observations from a re-analysis of the deposited data

How the results depend on the processing

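The covered length kept its direction over all regions, at coding promoters and at distal regions under all alternatives run. With the replicate block, in which libraries of the same number were paired, the mean log2 difference over all regions was again 0.25 (0.49 and 0.02 in the pairs, exact sign-flip p = 0.50, the smallest possible). The labels do not say that a number marks a shared culture, and same-numbered deviations correlated at -0.26 in width and -0.24 in height. The replicate block gave 0 regions wider or narrower, 15 higher and 0 lower, and the crossed pairing, chosen after seeing the data, 0, 0, 2 and 0.

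Counts moved more. At a −log10 q of at least 3, 1801 regions and 84 genes were gained and 66 regions and 1 gene lost. The highest mixed pair then had 1524 regions and 92 genes, so gained genes stayed below it. With lists of equal length 815 regions were gained and 265 lost, and 9 genes were lost. The highest mixed pair there had 906 regions. Within 1 kb of a TSS 34 genes were gained and 1 lost. Leaving out each library in turn gave 1882 to 6290 regions gained and 171 to 2792 lost, 71 to 366 genes gained and 3 to 68 lost, 0 to 162 regions higher and 0 to 11 lower, and 0 wider or narrower. The 162 and 11 came without siControl replicate 2. With fewer libraries, more regions meet the definition of gained or lost, and the group left with 1 library needs a peak in that library alone. H3K27ac was gained over 8.96% of gained regions with lists of equal length, 9.94% at the q filter and 7.78% at coding promoters alone, all chosen after seeing the data. Of 13 named gained regions 12, 10 and 13 kept the call under the q filter, equal lists and 50% coverage, and of 13 named lost regions 7, 9 and 3 did. Uncentred height gave 14 lower TGFb-SMAD targets and 11 lower matrix genes. With 2 libraries a group and unknown depth, absence of a peak is not absence of the mark.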
